A study of Schizosaccharomyces pombe with 6 samples.

Results

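Ribosomal RNA (rRNA) features of the fission yeast Schizosaccharomyces pombe were taken as all features whose identifier begins with SPRRNA, which gave 49 of the 7001 features in the table. By their annotation in RefSeq, 36 were copies of 5S rRNA, 5 were 18S, 3 were 28S and 3 were 5.8S, and 2 lay on the mitochondrial chromosome (MT). RNA of vegetative cells grown in YES medium at 32 °C was sequenced from 3 strains with 2 libraries each. In mug174Δ cells the gene mug174, which encodes a nuclear protein, was replaced, and in red1Δ cells the gene red1, whose product acts with the nuclear exosome in RNA decay, was replaced. Both deletions were made in the same parental wild-type (WT) strain, which served as control, and no other treatment was given. The comparison asked how the loss of each gene changed the transcript levels.

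In yeast, RNA polymerase I transcribes the rDNA unit into a long precursor that is cut and trimmed in the nucleolus into 18S, 5.8S and 28S rRNA. RNA polymerase III makes 5S rRNA. In S. pombe the 5S genes are dispersed along the chromosomes rather than placed in the rDNA unit. The 21S and 15S rRNAs of mitochondrial ribosomes are transcribed inside the organelle by a separate polymerase. The labels name a depletion of rRNA before library preparation with a kit designed for human, mouse and rat RNA, and the methods of the study name a selection of poly(A) RNA. The values below are therefore what remained of rRNA after such a step, and they do not give its amount in the cell.

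The library totals lay between 16565908 and 18627129 reads, and at these depths a single read over 119 bases came to 0.451 to 0.507 RPKM (reads per kilobase of feature, scaled to 1000000 reads of the library). The deleted genes matched the labels. The mug174Δ libraries held 1 and 0 reads of mug174, against 739 and 657 in WT, and the red1Δ libraries held 1 and 2 reads of red1, against 2457 and 2117 in WT.

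The 36 features annotated as 5S lay on all chromosomes, 12 on I, 16 on II and 8 on III. Their annotated lengths ran from 80 to 440 bases, and only 13 had 110 to 130 bases, because many hold flanking sequence. A sequence of 119 bases was found without any difference in 23 of them (115 of its bases in SPRRNA.55, whose annotation starts inside it), which are called exact copies here. Another 11, called near copies, differed from it at 1 to 3 bases. SPRRNA.54 and SPRRNA.41, called divergent, aligned to it with 90 and 98 identical bases of 119 when the genome around them was included, of which their annotations hold 111 and 74 bases. The commonest sequence is shown because a read that lies wholly within it can match several loci. SPRRNA.12 is shown as the near copy with the most reads, and SPRRNA.54 and SPRRNA.41 as the divergent pair. SPRRNA.10, at I:149658-149776 on the + strand, is one of 6 features that consist of exactly this sequence, and the capitals in the first line mark the 12 positions at which at least 1 near copy differs. In the other lines capitals mark bases that differ from the commonest sequence. SPRRNA.12 lies at I:912230-912396, SPRRNA.54 at II:3096968-3097078 and SPRRNA.41 at II:3171566-3171645, all on the − strand (RefSeq, build ASM294v3, with the same coordinates as the table).
commonest 5S: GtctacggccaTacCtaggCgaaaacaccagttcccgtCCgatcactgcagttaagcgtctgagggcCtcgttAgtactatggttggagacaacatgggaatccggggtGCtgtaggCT
SPRRNA.12: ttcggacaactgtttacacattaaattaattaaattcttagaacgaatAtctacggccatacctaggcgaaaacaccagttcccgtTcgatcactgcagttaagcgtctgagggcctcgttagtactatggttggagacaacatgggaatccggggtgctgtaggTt
SPRRNA.54: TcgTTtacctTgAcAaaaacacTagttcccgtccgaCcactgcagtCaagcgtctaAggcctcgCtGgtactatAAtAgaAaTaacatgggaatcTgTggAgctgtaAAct
SPRRNA.41: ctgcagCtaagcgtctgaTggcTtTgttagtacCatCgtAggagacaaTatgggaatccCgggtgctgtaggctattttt

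The near copies shared several of their changes. Counted from 1 at the 5′ end of the commonest sequence, with its base first, C20T occurred in 3 copies (SPRRNA.04, SPRRNA.05 and SPRRNA.11) and C118T in 3 (SPRRNA.11, SPRRNA.12 and SPRRNA.37). T12C occurred in 2 (SPRRNA.30 and SPRRNA.40), and the other changes in 1 copy each. SPRRNA.12 carried G1A, C39T and C118T.

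The flanks of the copies had features in common. Transcription by RNA polymerase III ends at runs of T, and 5S and tRNA genes of S. pombe have a TATA element upstream. The 4 letters TATA occurred in the 40 bases before the 5S sequence in 27 of the 34 exact and near copies (79.4%), against 19.5% of all 40-base windows of both strands of the 3 chromosomes. The 4 letters TTTT occurred in the 20 bases after it in 30 of the 34 (88.2%), against 17.3% of all 20-base windows. Only the strand of the copy was searched, overlapping matches counted as 1, and a match is a description of the letters and not of a binding site. The windows of the chromosomes include coding sequence, and some flanks resemble each other, those of SPRRNA.03 and SPRRNA.04 being identical. The shares were therefore not compared by a test. The flanks before 4 copies are given to show the range, with TATA in capitals where it occurs. SPRRNA.10 is a typical copy, SPRRNA.31 has no such match, and SPRRNA.54 and SPRRNA.41 are the divergent pair.
SPRRNA.10, 40 bases before: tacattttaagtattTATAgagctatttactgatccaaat
SPRRNA.31, 40 bases before: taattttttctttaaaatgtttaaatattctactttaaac
SPRRNA.54, 40 bases before: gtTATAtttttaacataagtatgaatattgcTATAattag
SPRRNA.41, 40 bases before: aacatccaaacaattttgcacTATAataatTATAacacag

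Taken as a share of all reads, rRNA was lower in both mutants than in WT, and the nuclear classes did not move together. The 49 features held 4.71% and 3.85% of the reads in mug174Δ, 2.87% and 2.97% in red1Δ, and 6.25% and 5.93% in WT. No library of a mutant overlapped WT. Exact 95% binomial intervals (Clopper-Pearson) of these shares were at most 0.0112 percentage points to either side and cover counting error only, so the spread between libraries was far wider than the counting error. Nearly all of these reads were 28S and 18S, while 5S and mitochondrial rRNA had under 1000 reads each in a library.

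The large subunit's 28S rRNA took 3.39% and 2.79% of the reads in mug174Δ, 1.84% and 1.96% in red1Δ, and 4.42% and 3.70% in WT. The small subunit's 18S rRNA took 1.28% and 1.02% in mug174Δ, 1.005% and 0.985% in red1Δ, and 1.75% and 2.16% in WT. The short 5.8S rRNA, which pairs with 28S in the large subunit, took 0.0368% and 0.0419% in mug174Δ, 0.0172% and 0.0213% in red1Δ, and 0.0736% and 0.0724% in WT. All mutant libraries lay below both WT libraries in all 3 classes, and both red1Δ libraries lay below both mug174Δ libraries in each. The mean share relative to WT was lowest for 5.8S in red1Δ, at 0.263 of the WT mean, against 0.468 for 28S and 0.508 for 18S. In mug174Δ it was 0.539 for 5.8S, 0.761 for 28S and 0.586 for 18S.

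The 36 features annotated as 5S went the other way. They held 13.6 and 17.0 RPM (reads scaled to 1000000 reads of the library) in mug174Δ, 27.0 and 41.8 in red1Δ, and 6.50 and 5.99 in WT. These are 226 and 316 reads in mug174Δ, 468 and 722 in red1Δ, and 119 and 104 in WT. The strains did not overlap, nor did the exact 95% intervals of libraries of different strains, which ran from 11.9 to 15.5 and from 15.1 to 18.9 RPM in mug174Δ, from 24.6 to 29.6 and from 38.8 to 44.9 in red1Δ, and from 5.38 to 7.78 and from 4.90 to 7.26 in WT. The mean was 2.45 times the WT mean in mug174Δ and 5.51 times in red1Δ. Many of these features include flanking sequence, and the values do not show whether their reads lie in it or in the 5S sequence. Over the 13 features of 110 to 130 bases, which include SPRRNA.54, the mean was 3.13 times the WT mean in mug174Δ and 5.45 times in red1Δ. The intervals cover counting error only and take reads as independent, which reads counted at several copies would not be. The 2 red1Δ libraries differed from each other by more than counting error. In RNA of whole cultures, a difference in some cells and a smaller one in all cells cannot be told apart. With a pair of libraries in each strain, an exact permutation test of such a sum cannot reach 0.05, and none is given.

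The mitochondrial 21S and 15S rRNAs together held 58.3 and 22.4 RPM in mug174Δ, 40.7 and 30.7 in red1Δ, and 31.3 and 34.2 in WT. Here the WT libraries lay between those of each mutant, and the mug174Δ libraries were the farthest apart.

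**Figure D1:**
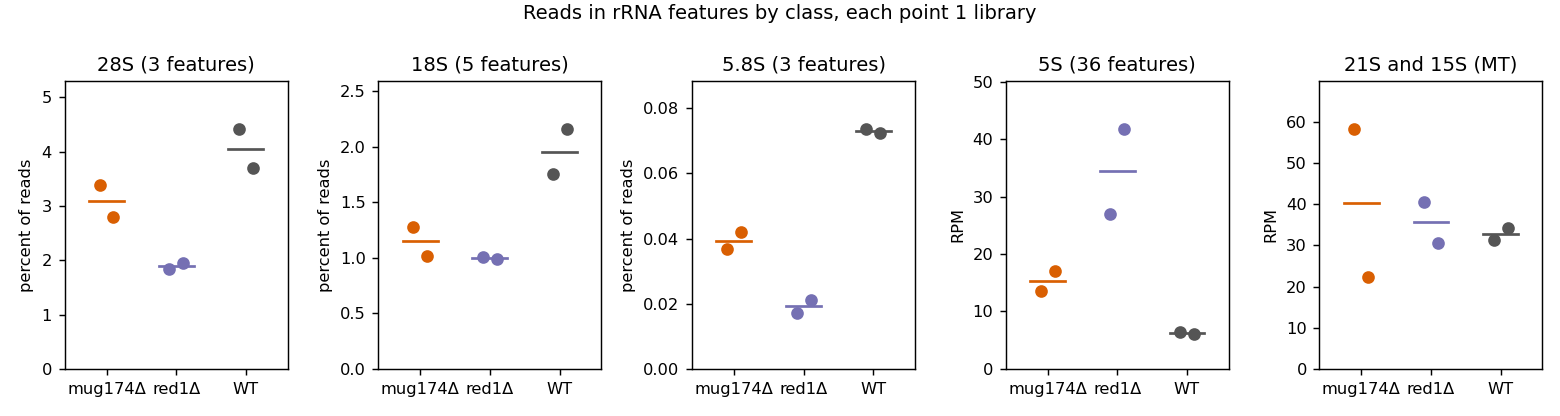
Reads in rRNA features by class in mug174Δ, red1Δ and WT, as percent of reads for 28S, 18S and 5.8S and as RPM for 5S and mitochondrial rRNA. Each point is 1 library and each line the mean of 2; both WT libraries are the highest for 28S, 18S and 5.8S and the lowest for 5S, at 6.50 and 5.99 RPM.

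Single features were compared on log2(RPKM + 0.5) with limma, over the 5949 features that reached 1 RPKM in at least 2 libraries, with Benjamini-Hochberg adjustment over all of them. Fold changes of features with few reads are understated on this scale. All 11 features of the rDNA unit, both mitochondrial features and 25 of the 36 copies of 5S were tested. A feature is said to have risen or fallen where its adjusted p was under 0.05. As background, 19.8% of all tested features rose and 5.53% fell in mug174Δ against WT, 48.4% rose and 7.33% fell in red1Δ against WT, and 16.1% rose and 3.28% fell in red1Δ against mug174Δ. The median log2 fold change of all tested features was 0.18, 0.35 and 0.18 in these 3 comparisons, so an rRNA feature that fell did so against a general shift upward. Scaling the libraries by their median ratio took these medians to 0.01, -0.00 and -0.01, and the features that rose and fell then numbered 582 and 602 in mug174Δ and 1074 and 1135 in red1Δ, against 1179 and 329, and 2880 and 436, without it. No called rRNA feature changed direction under that scaling. Both mutants were compared with the same 2 WT libraries.

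The 11 features of the rDNA unit lie at both ends of chromosome III, and they are copies of few sequences. The 3 copies of 28S (3485 bases) and the 3 of 5.8S (165 bases) were identical, and those of 18S (1842 bases where complete) were identical apart from 1 base in SPRRNA.42, so reads cannot be assigned to a copy and the 11 fits amount to 3 measurements. SPRRNA.42 and SPRRNA.45 are cut short by the chromosome ends. In red1Δ all 11 fell against WT (7.33% of all tested features did), and in mug174Δ 8 fell (5.53% of all), the 5 of 18S and the 3 of 5.8S. In red1Δ against mug174Δ 6 fell (3.28% of all), the copies of 28S and of 5.8S.

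SPRRNA.48, the 28S copy with the highest mean, lies at III:16927-20411 on the − strand. It had 3362 and 2775 RPKM in mug174Δ, 1829 and 1950 RPKM in red1Δ, and 4388 and 3686 RPKM in WT. The strains did not overlap, and red1Δ was lowest. Its log2 fold change was -1.09 (SE 0.17, adjusted p 0.0044) in red1Δ against WT and -0.69 (SE 0.17, adjusted p 0.038) in red1Δ against mug174Δ. In mug174Δ against WT the value of -0.40 (SE 0.17) did not pass, with an adjusted p of 0.12. The other copies, SPRRNA.47 and SPRRNA.49, had 2527 to 3287 RPKM in mug174Δ, 1671 to 1894 in red1Δ and 3323 to 4287 in WT.

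SPRRNA.44, the 18S copy with the highest mean, lies at III:21289-23130 on the − strand. It had 1805 and 1417 RPKM in mug174Δ, 1419 and 1411 RPKM in red1Δ, and 2459 and 3024 RPKM in WT. Both mutants were below WT, and the lower mug174Δ library was level with the red1Δ libraries. The log2 fold change was -0.77 (SE 0.17, adjusted p 0.026) in mug174Δ against WT and -0.95 (SE 0.17, adjusted p 0.0068) in red1Δ against WT. In red1Δ against mug174Δ it was -0.18 (SE 0.17, adjusted p 0.47). The other 4 copies had 981 to 1779 RPKM in mug174Δ, 920 to 1397 in red1Δ and 1693 to 2978 in WT.

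SPRRNA.52, the 5.8S copy with the highest mean, lies at III:2443248-2443412 on the + strand. It had 857 and 908 RPKM in mug174Δ, 334 and 372 RPKM in red1Δ, and 1640 and 1559 RPKM in WT. The 3 strains were well separated, with red1Δ lowest. It fell by 0.86 on the log2 scale (SE 0.10, adjusted p 0.0076) in mug174Δ against WT, by 2.18 (SE 0.10, adjusted p 1.8e-04) in red1Δ against WT and by 1.32 (SE 0.10, adjusted p 0.0017) in red1Δ against mug174Δ. The 2 other copies had 665 to 839 RPKM in mug174Δ, 345 to 470 in red1Δ and 1369 to 1455 in WT. SPRRNA.50 and SPRRNA.51 fell less in red1Δ, by 1.80 and 1.81 against WT and by 0.89 and 0.90 against mug174Δ (SE 0.15). In mug174Δ against WT they fell by 0.92 each. The copies thus differed in level and fold although their sequence is the same. All 3 copies have the same sequence, given here from SPRRNA.50 (III:9842-10006, − strand) because this RNA showed the largest fall among the rRNA classes in red1Δ.
5.8S: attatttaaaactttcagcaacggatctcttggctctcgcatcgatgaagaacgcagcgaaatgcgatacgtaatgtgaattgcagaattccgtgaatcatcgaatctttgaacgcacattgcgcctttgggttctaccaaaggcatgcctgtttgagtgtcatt

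Over all alternatives, the log2 fold changes of the 11 features in red1Δ against WT lay between -2.54 and -0.80. Those of the 8 called in mug174Δ against WT lay between -1.09 and -0.58. Those of the 6 called in red1Δ against mug174Δ lay between -1.51 and -0.55. The calls held better in red1Δ against WT than in mug174Δ against WT, but so did the calls over all features. In mug174Δ against WT, the calls were lost without any mug174Δ or WT library, where the fit gives a lone library the spread seen in the rest. Most calls over all features were lost there too, so this loss is not particular to rRNA. Without a filter on low values, 2 of these 8 passed, and 176 of all 7001 features fell, against 329 of 5949 with it. In red1Δ against mug174Δ, where calls over all features were lost likewise, SPRRNA.52 kept its call without either mug174Δ library. It fell more there than the other copies of 5.8S, although their sequence is the same.

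The 3 rRNAs come from 1 precursor, so their ratios within a library were also compared. The mean RPKM of 28S over that of 18S was 2.03 and 2.11 in mug174Δ, 1.41 and 1.53 in red1Δ, and 1.93 and 1.31 in WT. The WT libraries alone spanned the red1Δ values, so this ratio did not separate red1Δ from WT, and both mug174Δ libraries lay above all others. The ratio of 5.8S over 28S was 0.229 and 0.317 in mug174Δ, 0.197 and 0.230 in red1Δ, and 0.352 and 0.414 in WT. Both mutants lay below WT in this ratio, and they touched each other at 0.230 and 0.229. Whether library preparation retained fragments of 165 bases equally in all libraries was not tested.

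**Figure D2:**
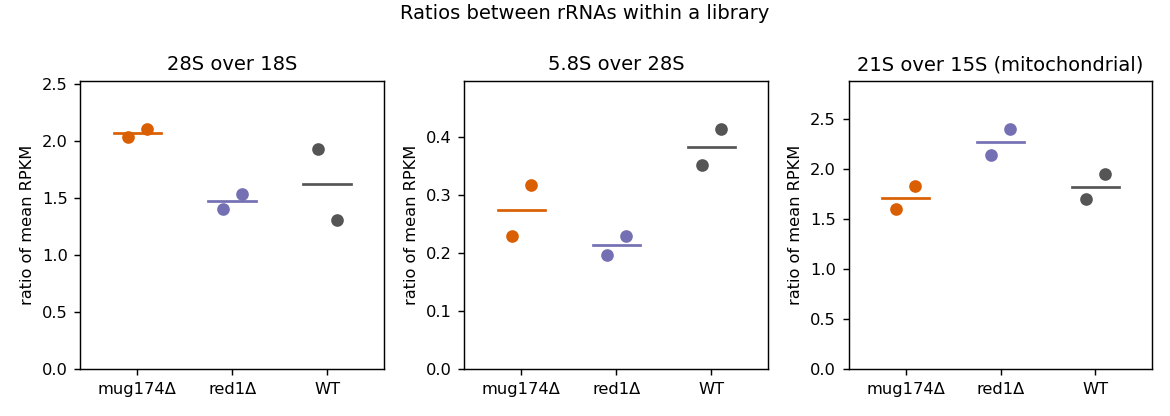
Ratios of mean RPKM between rRNAs within each library, for mug174Δ, red1Δ and WT, with 1 point for each library and a line at the mean of 2. For 5.8S over 28S both WT points, 0.352 and 0.414, lie above all mutant points, while for 28S over 18S the red1Δ points lie between the WT points, and for mitochondrial 21S over 15S both red1Δ points, 2.14 and 2.40, lie highest.

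The 2 divergent 5S features had the most reads of the 36. Together they held 934 of the 1955 reads of 5S over the 6 libraries (47.8%), against 707 reads in the 23 exact copies and 314 in the 11 near copies. The difference from the other copies is one of sequence as well as of level, because none of the 50-base words of SPRRNA.41 and SPRRNA.54 occurs elsewhere in the genome. In the exact and near copies, 14.3% to 100% of these words occurred elsewhere, up to 32 times. None of the sources used here states how reads with several matches were counted, so a level of an exact or near copy may hold reads from other copies or lack its own.

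SPRRNA.54 had 29.4 and 30.0 RPKM in mug174Δ, 49.4 and 48.5 RPKM in red1Δ, and 9.35 and 11.4 RPKM in WT. The 3 strains were separate and the libraries of each strain lay close together. Against WT it rose by 1.48 (SE 0.12, adjusted p 0.0040) in mug174Δ and by 2.19 (SE 0.12, adjusted p 3.1e-04) in red1Δ on the log2 scale, and in red1Δ against mug174Δ by 0.71 (SE 0.12, adjusted p 0.017). The call in mug174Δ was lost without mug174Δ replicate 1 (adjusted p 0.061), and that of red1Δ against mug174Δ without either mug174Δ library and with voom weights (adjusted p up to 0.11). The call in red1Δ against WT held in all alternatives. The nearest other listed feature lay 645 bases away.

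SPRRNA.41, annotated as partial in RefSeq, had 32.4 and 61.7 RPKM in mug174Δ, 125 and 139.5 RPKM in red1Δ, and 41.6 and 19.5 RPKM in WT. It was the highest 5S feature in all 6 libraries. Both red1Δ libraries stood above all others, whereas mug174Δ and WT overlapped. It rose by 2.19 (SE 0.42, adjusted p 0.0081) in red1Δ against WT. In mug174Δ against WT the difference was 0.64 (SE 0.42, adjusted p 0.28), and in red1Δ against mug174Δ 1.55 (SE 0.42, adjusted p 0.0503), and neither passed.

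Reads of the exact and near copies gave the same order of strains as the divergent pair. The 23 exact copies held 97 and 129 reads in mug174Δ, 145 and 271 in red1Δ, and 31 and 34 in WT. The 11 near copies held 32 and 33 in mug174Δ, 55 and 165 in red1Δ, and 8 and 21 in WT. The divergent pair held 97 and 154 in mug174Δ, 268 and 286 in red1Δ, and 80 and 49 in WT. In none of these 3 groups did a mutant overlap WT in reads. Replicate 2 of red1Δ stood above replicate 1 in the exact and near copies, while the divergent pair differed little between them, and 28 of the 36 features were higher in replicate 2, 3 were lower and 5 were listed at 0 in both. The 31 copies other than the 5 with the most reads held 5.72 RPM in red1Δ replicate 1 and 17.5 in replicate 2, against 1.31 and 2.19 in WT. In mug174Δ these copies held 5.43 and 6.12 RPM.

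Feature by feature, 16 of the 25 tested copies rose in red1Δ against WT (48.4% of all tested features did), 5 in mug174Δ against WT and 5 in red1Δ against mug174Δ (16.1% of all), and none fell in any comparison by limma. At an unadjusted p under 0.05, 1 copy was lower in mug174Δ against WT and 0 in the other comparisons. The share that rose in mug174Δ (20%) was close to the 19.8% of all features. Moreover, of the 25 tested copies 15 reached 1 RPKM in no WT library and thus passed the filter only through the mutants, while 11 copies were not tested. Only 5 reached it in both WT libraries, and 4 of these rose in red1Δ against WT. The other tested copies all needed at least 1 mutant library to pass the filter. SPRRNA.04, SPRRNA.10, SPRRNA.30, SPRRNA.36 and SPRRNA.38 reached it only in red1Δ. The adjusted p-values of copies that entered in this way describe them and are no independent sign of a rise. Over all 36 copies, with no filter, both red1Δ libraries were above both WT libraries in 23 (63.9%), against 59.4% of all 7001 features. For mug174Δ this held in 19 (52.8%), against 48.1% of all features. The median log2 fold change over the tested copies, which the filter also affects, was 2.18 in red1Δ and 1.03 in mug174Δ, against 0.35 and 0.18 over all tested features. With copies listed at 0 in both WT libraries set to the bound that 3 reads over the group allow, the median was 1.03 over 23 copies in mug174Δ, where 2 were at the bound and another 2, with at most 3 reads in mug174Δ, were left out, and 2.16 over all 25 in red1Δ, where 4 were at the bound. In red1Δ against WT, fewer copies rose without red1Δ replicate 2, where fewer were tested, and without WT replicate 1. In mug174Δ against WT, fewer copies rose without any mug174Δ or WT library, and more without either red1Δ library. In red1Δ against mug174Δ, fewer rose without either mug174Δ library, without red1Δ replicate 2 and without WT replicate 1. The number of all tested features that rose moved in the same direction in each of these cases.

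**Figure D3:**
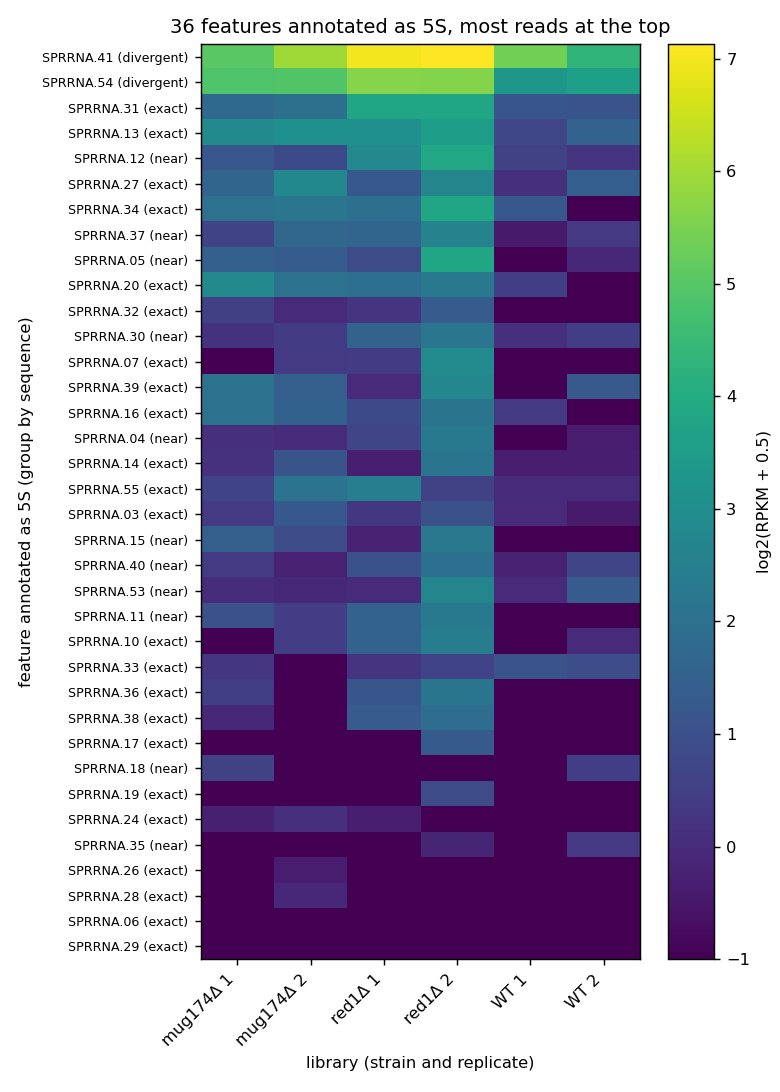
Levels of the 36 features annotated as 5S, from the most reads (top) to the fewest, in each library of mug174Δ, red1Δ and WT; the colour gives log2(RPKM + 0.5), and the words in brackets give the sequence group. SPRRNA.41 and SPRRNA.54 at the top are brightest in every column, and for many copies red1Δ replicate 2 is brighter than red1Δ replicate 1.

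Among the exact copies, SPRRNA.31 (II:783253-783498, + strand) had the most reads, with 156. Its annotation holds 121 bases after the 5S sequence, and 52.3% of its 50-base words occurred elsewhere. It had 2.94 and 3.49 RPKM in mug174Δ, 13.2 and 13.4 RPKM in red1Δ, and 1.78 and 1.64 RPKM in WT. The strains were separate, and both red1Δ libraries were alike. The log2 fold change was 2.64 (SE 0.17, adjusted p 5.7e-04) in red1Δ against WT and 1.89 (SE 0.17, adjusted p 0.0033) in red1Δ against mug174Δ, and both calls held in all alternatives. In mug174Δ against WT it was 0.75 (SE 0.17, adjusted p 0.029), a call lost under median ratio scaling, with voom weights and without any mug174Δ or WT library (adjusted p up to 0.17).

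SPRRNA.13 (I:2976790-2976979, + strand), with 42 annotated bases after the 5S sequence, had 6.99 and 7.91 RPKM in mug174Δ, 7.91 and 11.3 RPKM in red1Δ, and 1.15 and 2.43 RPKM in WT. Both mutants lay above WT and touched each other. It rose by 1.85 (SE 0.32, adjusted p 0.014) in mug174Δ and by 2.18 (SE 0.32, adjusted p 0.0041) in red1Δ against WT, the first not without either mug174Δ library, without WT replicate 1 or without a filter.

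SPRRNA.12, the near copy with the most reads, had 1.81 and 1.29 RPKM in mug174Δ, 6.57 and 13.9 RPKM in red1Δ, and 0.981 and 0.690 RPKM in WT. It was clearly highest in red1Δ. It reached 1 RPKM in no WT library and entered the test only through the mutants. Its adjusted p-values are thus no independent sign of a rise. It rose by 2.92 (SE 0.38, adjusted p 0.0031) in red1Δ against WT, a call that held in all alternatives, and by 2.31 (SE 0.38, adjusted p 0.016) in red1Δ against mug174Δ, which was lost without either mug174Δ library or without a filter.

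SPRRNA.20 (I:4240850-4240968, − strand) consists of the commonest sequence alone, and all of its 50-base words occurred elsewhere. It had 6.59 and 3.61 RPKM in mug174Δ, 3.40 and 4.37 RPKM in red1Δ, and 0.918 and 0 RPKM in WT. Both mutants were above WT and overlapped each other. No WT library reached 1 RPKM, so SPRRNA.20 entered the test only through the mutants. Its adjusted p-values are thus no independent sign of a rise. It rose by 2.68 (SE 0.54, adjusted p 0.020) in mug174Δ and by 2.37 (SE 0.54, adjusted p 0.013) in red1Δ against WT. Neither call passed without a filter, and that in mug174Δ was also lost without any mug174Δ or WT library.

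SPRRNA.11 (I:456527-456645, + strand), a near copy, had 1.52 and 0.902 RPKM in mug174Δ, 2.43 and 4.37 RPKM in red1Δ, while both WT libraries were at 0. These are 5 reads in mug174Δ and 14 in red1Δ, at least 1.69-fold and at least 4.81-fold higher than the 3 reads over both WT libraries that a count of 0 allows. SPRRNA.11 entered the test only through the mutants, so its adjusted p-values are no independent sign of a rise. It passed the test in both mutants (adjusted p 0.024 in mug174Δ and 0.0029 in red1Δ), in mug174Δ not without any mug174Δ or WT library, with voom weights or without a filter. SPRRNA.38, an exact copy, was likewise at 0 in WT. It had 0.428 and 0 RPKM in mug174Δ and 2.05 and 3.28 RPKM in red1Δ, with 13 reads in red1Δ, at least 4.47-fold higher than WT (adjusted p 0.0055). SPRRNA.38 reached 1 RPKM only in red1Δ and entered the test through that strain alone, so the same limit holds for it. It also passed in red1Δ against mug174Δ (adjusted p 0.025), a call lost in 7 alternatives.

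SPRRNA.30, a near copy, had 0.653 and 0.871 RPKM in mug174Δ, 2.4985 and 4.06 RPKM in red1Δ, and 0.590 and 0.935 RPKM in WT. Only the red1Δ libraries stood apart, and only they reached 1 RPKM, so this copy entered the test through them alone. It rose by 1.56 (SE 0.33, adjusted p 0.010) in red1Δ against WT and by 1.56 (SE 0.33, adjusted p 0.029) in red1Δ against mug174Δ, the first not without WT replicate 1 and the second lost in 7 alternatives.

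Other copies with many reads showed how much 1 library could weigh. SPRRNA.27 had 2.61 and 6.38 RPKM in mug174Δ, 1.87 and 5.94 RPKM in red1Δ, and 0.590 and 2.18 RPKM in WT, and passed in no comparison. With the replicate number as a block it passed in mug174Δ and in red1Δ against WT (adjusted p 0.013 and 0.0090). SPRRNA.34 had 3.55 and 4.06 RPKM in mug174Δ, 3.40 and 13.6 RPKM in red1Δ, and 1.84 and 0 RPKM in WT. It passed in red1Δ against WT (adjusted p 0.035), but not in 10 of the alternatives, among them without red1Δ replicate 2. SPRRNA.37, a near copy, had 1.10 and 2.68 RPKM in mug174Δ, 2.63 and 5.78 RPKM in red1Δ, and 0.248 and 0.786 RPKM in WT, and passed in red1Δ against WT (adjusted p 0.016). This call was lost without red1Δ replicate 2, without WT replicate 1 and without a filter. SPRRNA.37 reached 1 RPKM in no WT library, so it entered the test only through the mutants. The opposite order was seen in SPRRNA.33, an exact copy with 0.723 and 0 RPKM in mug174Δ, 0.692 and 1.04 RPKM in red1Δ, and 1.64 and 1.38 RPKM in WT. Both mutants lay below WT there, but the test did not pass (adjusted p 0.085 in mug174Δ and 0.35 in red1Δ).

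The near copies differed from each other as well. SPRRNA.05 had 2.30 and 2.05 RPKM in mug174Δ, 1.32 and 13.7 RPKM in red1Δ, and 0 and 0.440 RPKM in WT, and its call in red1Δ (adjusted p 0.039) was lost in 11 alternatives, among them without red1Δ replicate 2. SPRRNA.05 reached 1 RPKM only in the mutants and entered the test through them. SPRRNA.04 reached it only in the red1Δ libraries and entered the test through them alone. It had 0.578 and 0.514 RPKM in mug174Δ, 1.11 and 4.43 RPKM in red1Δ, and 0 and 0.276 RPKM in WT, and passed in red1Δ against WT (adjusted p 0.022). That call was lost without either WT library and without a filter. SPRRNA.15, which carried C15G and A74G, had 2.25 and 1.33 RPKM in mug174Δ and 0.359 and 4.31 RPKM in red1Δ, was at 0 in WT, and did not pass (adjusted p 0.090 in mug174Δ and 0.069 in red1Δ). SPRRNA.40 had 0.789 and 0.351 RPKM in mug174Δ, 1.51 and 3.40 RPKM in red1Δ, and 0.357 and 1.13 RPKM in WT. SPRRNA.53 had 0.525 and 0.467 RPKM in mug174Δ, 0.502 and 6.03 RPKM in red1Δ, and 0.475 and 2.005 RPKM in WT. Their log2 fold changes in mug174Δ against WT were -0.17 and -0.65, and they did not pass in any comparison. SPRRNA.18 and SPRRNA.35 had 4 and 3 reads over the 6 libraries and were not tested.

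Of the remaining copies, SPRRNA.10, SPRRNA.16 and SPRRNA.36 passed in red1Δ against WT (adjusted p 0.019, 0.048 and 0.013). SPRRNA.10 and SPRRNA.36 reached 1 RPKM only in red1Δ, and SPRRNA.16 only in the mutants, so they entered the test through these strains. SPRRNA.36 was at 0 in both WT libraries, and its call was lost without either of them. The call of SPRRNA.10 was lost without WT replicate 1 and without a filter, and the call of SPRRNA.16 was lost in 13 of the alternatives. SPRRNA.03, SPRRNA.14, SPRRNA.39 and SPRRNA.55 were tested and passed nowhere. The other exact copies, which were not tested, had 0 to 32 reads over all libraries, and 2 of them, SPRRNA.06 and SPRRNA.29, had none. In WT 13 of the 36 copies were listed at 0 in both libraries, against 5 in mug174Δ and 5 in red1Δ.

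**Figure D4:**
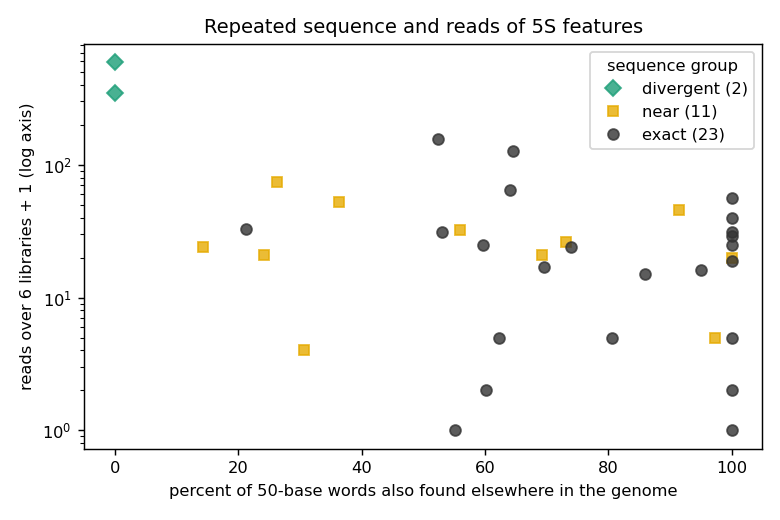
Reads over all 6 libraries of each 5S feature (plus 1, log axis) against the percent of its 50-base words that occur elsewhere in the genome, with the 2 divergent, 11 near and 23 exact copies marked apart. The divergent features at 0% have 345 and 589 reads, while the features at 100% include a copy with 55 reads and a copy with 0.

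The 10 features that consisted only of words found elsewhere held 218 reads in all. Genes of tRNA are also transcribed by RNA polymerase III. The 10 exact and near copies within 1000 bases of a tRNA feature had a median of 15.5 reads over all libraries, and the 24 farther away a median of 23.5. SPRRNA.29 was the only copy to overlap another listed feature. The non-coding RNA SPNCRNA.1366 lies opposite to it and had 10.95 and 11.1 RPKM in mug174Δ, 45.6 and 57.4 RPKM in red1Δ, and 5.32 and 5.81 RPKM in WT, while SPRRNA.29 was at 0 throughout. None of the sources used here states whether reads in the overlap were assigned by strand.

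The mitochondrial features passed the test in no comparison, with limma as described (0 also at an unadjusted p under 0.05) or with voom weights. SPRRNA.01, the 21S rRNA of the large subunit, had 15.7 and 6.22 RPKM in mug174Δ, 11.7 and 8.997 RPKM in red1Δ, and 8.55 and 9.64 RPKM in WT. SPRRNA.02, the 15S rRNA of the small subunit, had 9.81 and 3.40 RPKM in mug174Δ, 5.44 and 3.74 RPKM in red1Δ, and 5.03 and 4.95 RPKM in WT. The groups overlapped for both, and log2 fold changes lay between -0.34 and 0.21 with SEs of 0.40 to 0.45, so that changes of this size were not detectable. The ratio of 21S over 15S was 1.60 and 1.83 in mug174Δ, 2.14 and 2.40 in red1Δ, and 1.70 and 1.95 in WT, with both red1Δ libraries the highest. The 37 other mitochondrial features, of which 5 were tested, also gave 0 calls in limma in any of the 3 comparisons, and 0 at an unadjusted p under 0.05.

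**Figure D5:**
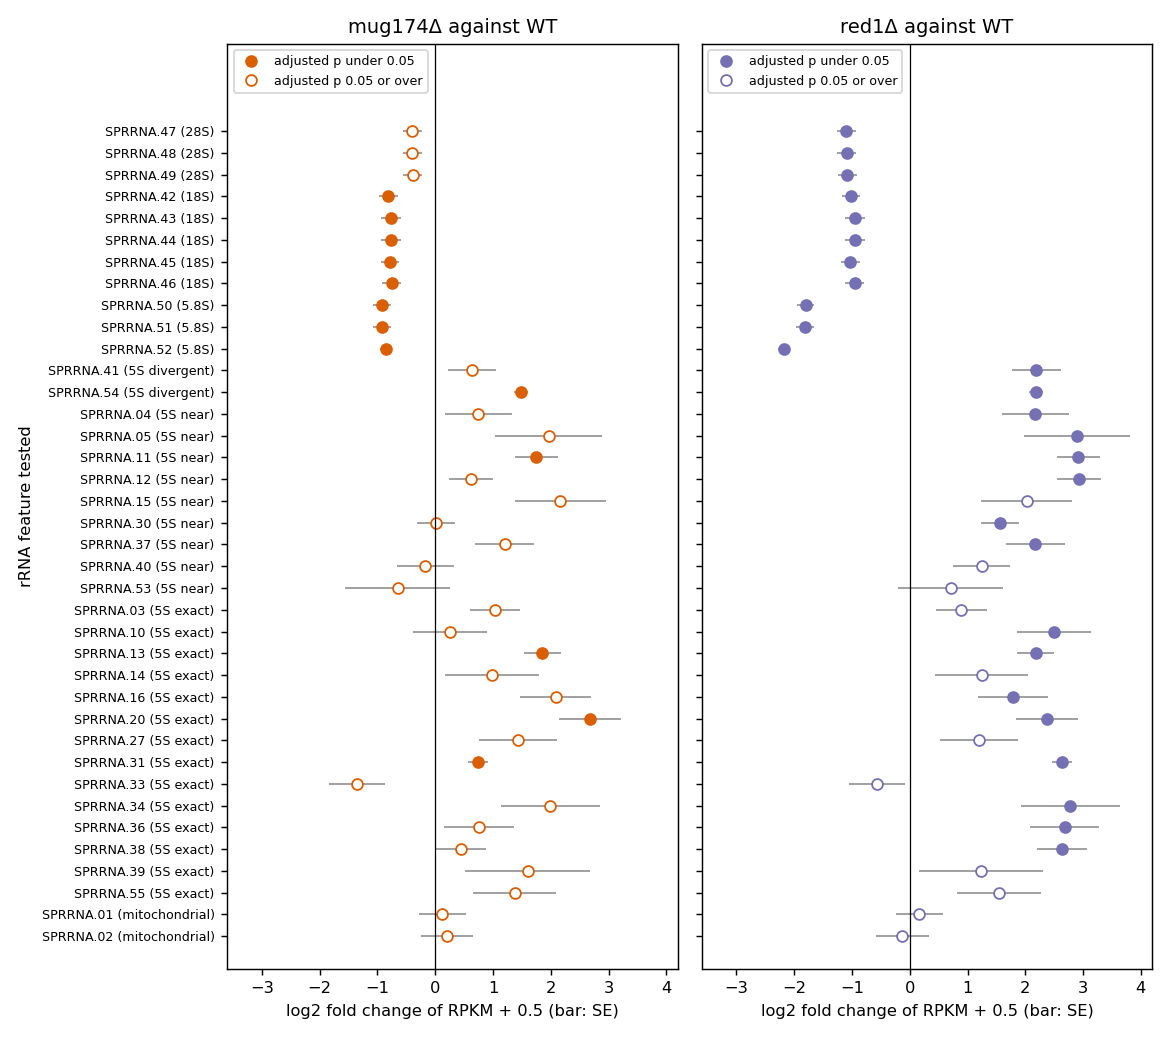
Log2 fold changes of RPKM + 0.5 with their standard errors for the 38 rRNA features tested, in mug174Δ against WT (left) and red1Δ against WT (right); filled points have an adjusted p under 0.05. In red1Δ the 11 features of the rDNA unit lie left of 0 and 16 filled points of 5S lie right of 0, while the 2 mitochondrial features lie near 0.

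The tRNA features outside the mitochondrion, the other main product of RNA polymerase III, also had few reads, with both red1Δ libraries highest and both WT libraries lowest. All 171 together held 85 and 72 reads in mug174Δ, 107 and 225 in red1Δ, and 50 and 33 in WT. Replicate 2 of red1Δ again stood above replicate 1. Of the 24 that were tested, 3 rose in mug174Δ and 12 in red1Δ against WT, where 19.8% and 48.4% of all tested features rose, so neither count lay clearly above the background. In red1Δ against mug174Δ 7 rose (16.1% of all), and none fell in any comparison by limma (at an unadjusted p under 0.05, 1 was lower in mug174Δ and 0 in the other comparisons). The filter on low values acts here as it does on 5S.

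Messenger RNAs for the machinery of rRNA synthesis rose and fell within the same lists. Of the RNA polymerase III subunits and factors, 22 of 25 names were listed and tested. In mug174Δ 5 rose and 1 fell (19.8% and 5.53% of all tested features did), and in red1Δ 8 rose and 1 fell (48.4% and 7.33% of all). The median log2 fold changes were 0.17 in each, against 0.18 and 0.35 over all tested features, and the share that rose in red1Δ lay below the background. The mRNA of tbp1, the TATA-binding protein that all 3 polymerases use, had 968 and 862 RPKM in mug174Δ, 888 and 1014 RPKM in red1Δ, and 249.9 and 309.5 RPKM in WT. It rose by 1.71 (SE 0.14, adjusted p 0.0040) in mug174Δ and by 1.77 (SE 0.14, adjusted p 8.7e-04) in red1Δ. The mRNAs of the other subunits of TFIIIB, the factor that recruits RNA polymerase III, rose in both mutants, brf1 by 0.87 and 1.20 and bdp1 by 0.81 and 0.64 on the log2 scale in mug174Δ and red1Δ. That of rpc25, a subunit of the polymerase, fell by 1.22 in red1Δ (SE 0.09, adjusted p 8.1e-04), with 67.6 and 58.4 RPKM in red1Δ against 147 and 147 RPKM in WT.

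For RNA polymerase I, 17 of 18 names were listed and 16 tested. In mug174Δ 0 rose by limma (1 at an unadjusted p under 0.05) and 3 fell, where 19.8% and 5.53% of all tested features rose and fell. In red1Δ 1 rose and 2 fell, where 48.4% and 7.33% of all did, and the medians were -0.03 and -0.11 in mug174Δ and red1Δ. The mRNA of hmo1, an HMG-box protein that binds rDNA in budding yeast, had 352 and 365 RPKM in mug174Δ, 420.1 and 476 RPKM in red1Δ, and 494 and 478 RPKM in WT, and fell by 0.44 in mug174Δ (SE 0.09, adjusted p 0.023). That of spp27 fell by 0.41 in mug174Δ and by 0.30 in red1Δ (adjusted p 0.025 and 0.030). The largest change in the list was that of rpa43, a polymerase I subunit with low levels. It fell by 1.40 in mug174Δ against WT (SE 0.39, adjusted p 0.046), with 1.04 and 2.67 RPKM in mug174Δ against 6.59 and 4.31 RPKM in WT. In red1Δ it had 7.31 and 9.09 RPKM and did not pass against WT (adjusted p 0.25). In red1Δ rpc19, a subunit shared by polymerases I and III, fell by 0.50 (adjusted p 0.010), and rrn7, a core factor of polymerase I, rose by 0.36 (adjusted p 0.010).

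Of the 8 genes for 5S binding and ribosome assembly, 3 fell in mug174Δ (5.53% of all tested features did) and 4 in red1Δ (7.33% of all), with medians of -0.09 and -0.47. In mug174Δ 0 rose by limma, also at an unadjusted p under 0.05, and in red1Δ 1 rose (19.8% and 48.4% of all). Those that fell encode Rpl5 and Rpl11, the proteins that bind 5S rRNA before it joins the ribosome, and their paralogous genes may share reads. Both are ribosomal proteins, and the study reports cytoplasmic translation as the main annotation among genes decreased in mug174Δ. The assembly genes rpf2, rrs1 and sla1 passed in neither mutant against WT. The mRNA of rpl501 had 1817 and 1855 RPKM in mug174Δ, 2070.2 and 1650 RPKM in red1Δ, and 2983 and 3126 RPKM in WT, and fell by 0.73 (SE 0.15, adjusted p 0.021) in mug174Δ and by 0.72 (SE 0.15, adjusted p 0.0098) in red1Δ. The copies rpl502 and rpl1102 fell in both mutants, by 0.73 and 0.66 in mug174Δ and by 0.79 and 0.68 in red1Δ, and rpl1101 fell in red1Δ as well. The gene that rose in red1Δ was sfc2, for TFIIIA, which binds 5S genes and 5S rRNA, with 86.7 and 105.9 RPKM in red1Δ against 73.1 and 71.0 RPKM in WT (log2 0.41, SE 0.12, adjusted p 0.028).

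For nucleolar processing of the precursor, 24 of 27 names were listed and 23 tested. In mug174Δ 4 rose and 1 fell (19.8% and 5.53% of all tested features did), and in red1Δ 3 rose and 5 fell (48.4% and 7.33% of all), with medians of 0.06 and -0.08. The mRNA of imp4, a component of the small subunit processome, had 109.1 and 96.9 RPKM in mug174Δ, 64.4 and 61.0 RPKM in red1Δ, and 49.2 and 42.7 RPKM in WT, and rose by 1.16 (SE 0.11, adjusted p 0.0048) in mug174Δ and by 0.45 (SE 0.11, adjusted p 0.016) in red1Δ. That of rrp9, of the same complex, rose by 0.68 and 0.46 in mug174Δ and red1Δ, and nop10, of the H/ACA particles that modify rRNA, fell by 0.40 and 0.55. The mRNA of pac1, the RNase III that cuts the precursor, rose by 0.52 in red1Δ (adjusted p 0.0087) and not in mug174Δ (log2 0.00, adjusted p 0.99). Of 6 genes for mitochondrial transcription and RNA turnover, mtf1, a mitochondrial transcription factor, rose by 0.72 (adjusted p 0.0032) and pnu1, a mitochondrial nuclease, by 0.55 (adjusted p 0.015) in red1Δ (48.4% of all rose), and 0 passed in mug174Δ in limma (1 was higher and 1 lower at an unadjusted p under 0.05).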

How the data were processed

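RNA-seq libraries of mug174Δ, red1Δ and WT cells (2 each, grouped by the labels) were analysed. The authors' deposited table gives RPKM values, in which reads are set over feature length and over the sum of reads of the table, unscaled between libraries. HISAT2 and build ASM294v2 are named in the study's methods, whereas STAR 2.5.3a and StringTie 1.3.1c are named in the submitters' processing notes, so the aligner used is uncertain. The counter, its strand setting and its treatment of reads with several matches are stated by none of the sources used here. The deposited log2 fold changes and p-values of each mutant against WT are the authors' own comparison and were not used.

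Reads were recovered as RPKM times length over the value of 1 read, and came out whole within 0.01 reads for 100% of values. The fit of log2(RPKM + 0.5) used limma 3.58.1 under R 4.3.3 and all 6 libraries, with a mean for each strain and eBayes with an intensity trend. Tests were 2-sided and p-values were adjusted by Benjamini-Hochberg over features at 1 RPKM or more in at least 2 libraries. The code was tested on simulated data. Sequences were read from the RefSeq genome, in which 47 of 47 nuclear rRNA features had the coordinates of the table. The mitochondrial sequence there is of another build and was not used. The 5S features were aligned with Biopython 1.88 to their commonest sequence. Classes follow the RefSeq product, because a length limit of 110 to 130 bases, as first planned, would leave out 23 of the 36 features annotated as 5S.

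The rRNA features and gene lists were chosen with earlier results of these data known. Values were given for each mitochondrial feature, for the highest copy of each rDNA class, and for 5S copies among the 8 with the highest mean, those that differ from the commonest sequence and up to 8 with the smallest adjusted p in a comparison. For SPRRNA.18 and SPRRNA.35 only the reads over all libraries were given. SPRRNA.33, sfc2, rpa43 and the T and TATA searches were chosen after the values were seen. From each gene list up to 4 members with the smallest p are named. Alternatives covered the pseudocount, the filter, scaling, the fit and leaving out each library. The sources describe 2 isolations of RNA as biological replicates and the sequencing as independent experiments. How separate the cultures were is stated by none of them, and p-values reflect only how these libraries differ, which may be technical. The shared fit assumes that all strains vary alike.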

Additional observations from a re-analysis of the deposited data

How the results depend on the processing

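No called rRNA feature changed direction in any alternative, and the ratios of class shares to WT moved by less than the spread between libraries when taken over reads outside rRNA or without the mitochondrial chromosome. Leaving out single libraries gave log2 ratios of -0.55 to 0.83 for mitochondrial rRNA in mug174Δ, on both sides of 0. Of the counts of 5S copies that rose, the main values were 5 in mug174Δ against WT, 16 in red1Δ against WT and 5 in red1Δ against mug174Δ. Without a filter they were 2, 9 and 2, with a filter at 5 RPKM 3 in mug174Δ and 5 in red1Δ against WT (6 copies tested, fewer by construction), with voom weights 3 in mug174Δ, and with only the 2 strains compared in the fit 3 in red1Δ against mug174Δ. Leaving out each library gave 0 to 8, 8 to 15 and 1 to 7. Of the rDNA unit, 8, 11 and 6 fell. Without a filter 2 fell in mug174Δ against WT and 1 in red1Δ against mug174Δ, and with only the 2 strains 3 in red1Δ against mug174Δ. Over all features, 329 and 195 fell in mug174Δ against WT and red1Δ against mug174Δ in the main fit, and 176 and 132 without a filter. With only the 2 strains, 100 of all features fell in red1Δ against mug174Δ. Leaving out a library changed the counts of the rDNA unit too, as it did the calls over all features. Where the cause of such a change is not given by fewer features or libraries, the cause was not tested. With a replicate block, 7, 16 and 7 copies of 5S rose and 8, 11 and 6 features of the rDNA unit fell. Of all tested features, 1382, 2994 and 1081 rose and 381, 486 and 280 fell with it. The block added calls of SPRRNA.27 and SPRRNA.37 in mug174Δ against WT (adjusted p 0.013 and 0.025), of SPRRNA.27 in red1Δ against WT (0.0090) and of SPRRNA.10 and SPRRNA.37 in red1Δ against mug174Δ (0.015 and 0.048), ended that of SPRRNA.16 in red1Δ against WT (0.059), and changed no other call of an rRNA feature. The sources describe independent rounds of sequencing of the strains and do not say that the number marks the round. The correlations of deviations were 0.06 between mug174Δ and red1Δ, 0.19 between mug174Δ and WT and 0.23 between red1Δ and WT, so whether the numbers pair the libraries is uncertain.

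Low read numbers limit the tests of 5S copies, and 2 libraries a strain limit all tests. An effect of the depletion or selection step and one of the deletions cannot be told apart in these libraries.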
